A study of Mus musculus with 6 samples.

Results

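Arhgap6, Gm15261 and Amelx share one stretch of the mouse X chromosome: Gm15261 and Amelx lie inside a long intron of Arhgap6, on the opposite DNA strand. The members were found by their symbols in the deposited table, where they are 3 of 19954 genes. Gm15261 and Amelx were chosen because both were low after stimulation in these samples, so their values in that contrast are given below as a description with no test. Arhgap6 was taken by its position as the host gene, and its own change was tested. All samples came from wild-type C57BL/6 mice whose legs no longer moved after a severe thoracic contusion. Age and sex are not stated in the labels. The mice were placed on a treadmill for 30 min either without stimulation (CON, 3 samples, labelled paralyzed) or with targeted epidural electrical stimulation (TESS, 3 samples), and nuclei of the cord were sequenced. TESS worked together with D1 and 5-HT1a agonists, drugs that act on dopamine and serotonin receptors, and the labels leave unclear whether CON mice received them too. The labels call the tissue lumbar, although the protocol describes dissecting the site of the injury. Nothing ties a sample to an animal of its own, and the p-values below therefore measure the spread between samples.

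Small GTPases of the family of RhoA are molecular switches that set the shape of the actin skeleton, and GTPase-activating proteins such as the product of Arhgap6 switch them off, in this case RhoA itself. Amelx encodes amelogenin, the main protein of forming tooth enamel, and is known to be nested in an Arhgap6 intron. Gm15261 is annotated as an antisense RNA with no known function. Antisense RNAs are transcribed across a gene from its other strand, and because nuclei are rich in unspliced RNA, single-nucleus counts can include reads from introns.

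In GENCODE vM21 (GRCm38), Arhgap6 (ENSMUSG00000031355.16) spans chrX:168795099-169304435 on the plus strand, 509.337 kb with 7 transcripts that begin at 3 different starts. Gm15261 (ENSMUSG00000087201.1) spans chrX:169037674-169106536 on the minus strand, 68.863 kb with 4 exons in 1 transcript of 2763 bases. Amelx (ENSMUSG00000031354.16) spans chrX:169176114-169187200 on the minus strand, 11.087 kb with 5 transcripts. Neither shared an exonic base with Arhgap6 (0 bases each). Gm15261 lay within 1 intron of all 6 Arhgap6 transcripts that span it, and Amelx within 1 intron of all 7. The 3′ end of Gm15261 was 1.063 kb downstream of the second Arhgap6 start, so Gm15261 is transcribed toward that start. Its 5′ end was 6.511 kb before the third Arhgap6 start and 69.577 kb from the 3′ end of Amelx. No source used here states the strand used for counting. Whether plus-strand reads inside this intron were counted for Gm15261 or Amelx is therefore not known. Which gene gave the molecules counted as Gm15261 or Amelx is thus uncertain.

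**Figure D1:**
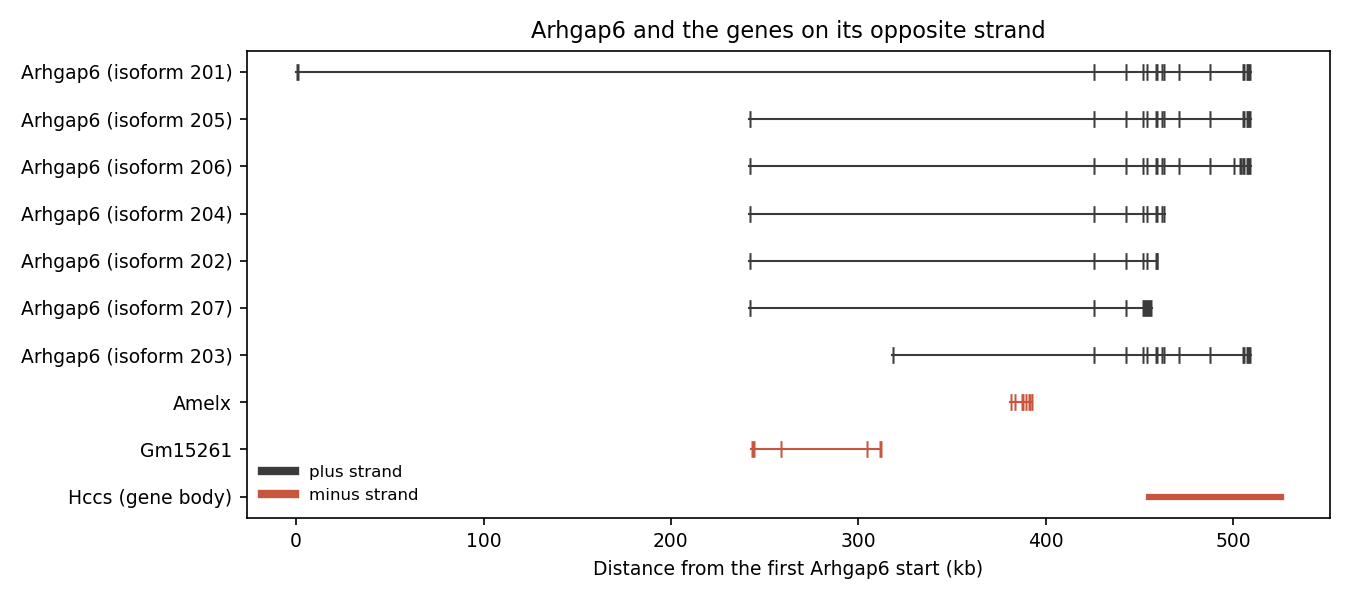
Gene models on a scale of distance from the first Arhgap6 start (kb); thin lines are introns, ticks are exons, dark is the plus strand and red the minus strand. Gm15261 and Amelx sit in the gap between the first and second exons of the long Arhgap6 transcripts, and the body of Hccs overlaps the last part of Arhgap6 on the minus strand.

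The end of Gm15261 and the second Arhgap6 start are shown because they mark where the opposed transcripts meet, and the Amelx start because it is where the other gene nested in Arhgap6 begins. The Gm15261 sequence is from GENCODE vM21, and the start regions, each 250 bases before to 50 after a start, are from RefSeq (GRCm38.p6). Capitals mark the AATAAA motif in Gm15261, the CANNTG E-box motif at the second Arhgap6 start, and the TATA box motif TATAAA at the Amelx start. AATAAA has the letters of the polyadenylation signal, and whether it acts as one here was not tested.
Gm15261 last 180 bases, ending at chrX position 169037674, minus strand: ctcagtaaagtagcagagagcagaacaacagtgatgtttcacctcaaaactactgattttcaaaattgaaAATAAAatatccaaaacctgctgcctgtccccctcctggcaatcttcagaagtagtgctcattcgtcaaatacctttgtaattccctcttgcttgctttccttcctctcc
Arhgap6 start 2, chrX:169036361-169036660, plus strand: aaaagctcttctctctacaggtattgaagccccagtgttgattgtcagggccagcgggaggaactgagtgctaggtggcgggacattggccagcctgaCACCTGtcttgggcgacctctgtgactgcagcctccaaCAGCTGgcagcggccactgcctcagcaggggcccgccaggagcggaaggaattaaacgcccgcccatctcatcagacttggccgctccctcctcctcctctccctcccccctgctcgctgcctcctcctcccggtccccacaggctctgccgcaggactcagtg
Amelx start 1, chrX:169187160-169187459, minus strand: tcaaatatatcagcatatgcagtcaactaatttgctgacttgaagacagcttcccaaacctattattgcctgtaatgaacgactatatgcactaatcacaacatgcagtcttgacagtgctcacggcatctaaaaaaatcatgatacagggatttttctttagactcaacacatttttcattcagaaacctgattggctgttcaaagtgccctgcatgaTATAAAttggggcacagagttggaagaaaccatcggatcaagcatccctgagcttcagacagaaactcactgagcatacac

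The Amelx start carried TATAAA at −31, a motif held by 13.6% of 32851 promoters of the same length searched on both strands. The second Arhgap6 start held 2 E-boxes, at −152 and −114, and 72.3% of promoters held at least 1. Among the 4 member promoters in the RefSeq table (3 of Arhgap6 and 1 of Amelx), none had a match to the cyclic AMP element TGACGTCA (1.79% of all promoters) or its core TGACG (20.8%). The AP-1 motif TGANTCA (7.81%), the EGR motif GCGTGGGCG (0.612%) and the glucocorticoid element (0.475%) had no match in them either. These factors act downstream of neuronal activity or stress hormone. The absence of a match says only that these letters are not in these windows. In the last 180 bases of Gm15261, AATAAA occurred 1 time, 110 bases from the end, and the whole transcript held it 7 times.

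The deposited table held 18514 nuclei in 6 major cell types, with 6035 neurons in 38 subtypes named by the authors, against 20484 nuclei and 6171 neurons stated in the series text. Samples held 1582104 to 4037976 UMIs (unique molecular identifiers, 1 per captured RNA molecule), and the neurons of a sample 984411 to 2602108. Median neuron depth was 1880, 2104.5 and 1512 UMIs in CON 1 to 3 and 2130, 1307 and 1210 in TESS 1 to 3, so TESS 2 and TESS 3 were shallower than every CON sample. CON 1, CON 2 and TESS 1 shared batch 3, while CON 3, TESS 2 and TESS 3 were each alone in a batch, and 205 barcode sequences occurred in more than 1 library. The neuron label fitted its markers: summed levels of Rbfox3, Snap25 and Syt1 were 2668 to 3076 CPM in neurons (CPM, the counts of a gene scaled to the UMIs of its class) and 523 to 867 CPM in oligodendrocytes. Within neurons 5 of 11 marker lists were higher in every TESS sample than in every CON sample. These were the neuron markers (2668 to 2842 CPM in CON and 2919 to 3076 CPM in TESS), inhibitory markers (423 to 509 and 530 to 606), cholinergic markers (14.02 to 18.9 and 21.8 to 38.2), oligodendrocyte precursor markers (9.61 to 11.97 and 16.2 to 20.3) and astrocyte markers (83.8 to 109 and 110 to 123). The ranges of the other lists overlapped, among them excitatory markers (152 to 176 and 163 to 188 CPM), oligodendrocyte markers (545 to 701 and 558 to 767) and 4 blood markers (23.9 to 58.0 and 52.4 to 108). The part of these markers in the results below was not tested. Every sample held 4266 to 15202 UMIs of Xist, the RNA of the inactive X chromosome, and 8 to 31 UMIs of the Y-linked genes Ddx3y, Uty and Kdm5d.

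All 3 genes were found mainly in neurons. Over the 6 samples, neurons held 96.4% of 6832 Arhgap6 UMIs, 96.3% of 836 Gm15261 UMIs and 95.2% of 167 Amelx UMIs, while they held 64.4% of the UMIs of all genes. Levels between cell types are described without a test, since the cell types were defined on the same counts. In CON, Arhgap6 stood at 637 ± 59.0 CPM in neurons (mean ± SD, n = 3). Endothelial cells followed at 122 ± 50.6 CPM, with microglia at 68.6 ± 27.1, oligodendrocyte precursors at 42.8 ± 46.2, astrocytes at 26.5 ± 8.86 and oligodendrocytes between 21.8 and 24.7 CPM. The neuron and endothelial samples did not overlap, and below them the ranges of neighbouring cell types did. The endothelial value rests on 22 Arhgap6 UMIs in CON. Endothelial markers were at 5.00 to 10.8 CPM in CON neurons and 6502 to 11027 CPM in CON endothelial cells. Gm15261 had 12 UMIs in endothelial cells, 8 in microglia, 6 in oligodendrocytes, 4 in oligodendrocyte precursors and 1 in astrocytes over all 6 samples. Amelx had 3, 4, 1, 0 and 0 UMIs in the same order.

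Excitatory neurons carried most of the signal of each gene. Subtypes were put in 20 excitatory, 17 inhibitory and 1 cholinergic by their largest summed transmitter marker level. Fxyd6 went to the inhibitory class with 334.7 CPM of inhibitory and 238.5 CPM of excitatory markers. It held 61 of the 749 inhibitory Arhgap6 UMIs in CON and 53 of 337 in TESS. The part of this choice in the inhibitory values was not tested. Arhgap6 stood at 1140 ± 94.0 CPM in CON excitatory neurons and at 199 ± 6.73 CPM in CON inhibitory neurons. Gm15261 stood at 164 ± 32.3 and 30.5 ± 2.25 CPM, and Amelx at 30.5 ± 2.84 and 7.40 ± 6.10 CPM. For each gene the lowest excitatory CON sample was above the highest inhibitory CON sample.

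Within excitatory neurons the level depended steeply on subtype. Among the 24 subtypes with at least 10 nuclei in every sample, Arhgap6 was highest in Npyr-1, where the 6 samples ran from 3553 to 4700 CPM around a median of 4151. Tac1 (2792 ± 520 CPM, n = 6), Tac2/Nmu (2610 ± 381), Grpr (1942 ± 422), Nts (1346 ± 175) and Crh (1068 ± 272) came next. Npyr-1 was the only subtype of the 24 whose sample range did not overlap that of its lower neighbour, and 22 of 23 neighbouring pairs overlapped. The inhibitory subtypes with the most Arhgap6 were Rorb (988 ± 545 CPM) and Npy (830 ± 323 CPM). The lowest was V1/Adam23, also inhibitory, at 44.0 ± 30.3 CPM. Of the Npyr-1 nuclei, 91.8% to 98.7% held an Arhgap6 UMI in 5 samples and 75.0% in TESS 3. In CON, Gm15261 was highest in Npyr-1 (494 ± 46.2 CPM, n = 3), Tac2/Nmu (382 ± 135), Tac1 (296 ± 101), Nts (290 ± 53.4), Bnc2 (284 ± 221), Grpr (274 ± 98.4) and Trh (268 ± 45.9). Bnc2 and Trh had higher means than Crh for Gm15261 (174 ± 22.2 CPM in Crh) but lower means than Crh for Arhgap6. Amelx, with fewer UMIs, was also highest in Npyr-1 (118 ± 41.5 CPM) and Tac2/Nmu (79.5 ± 35.9 CPM), and all 23 of its neighbouring pairs overlapped.

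**Figure D2:**
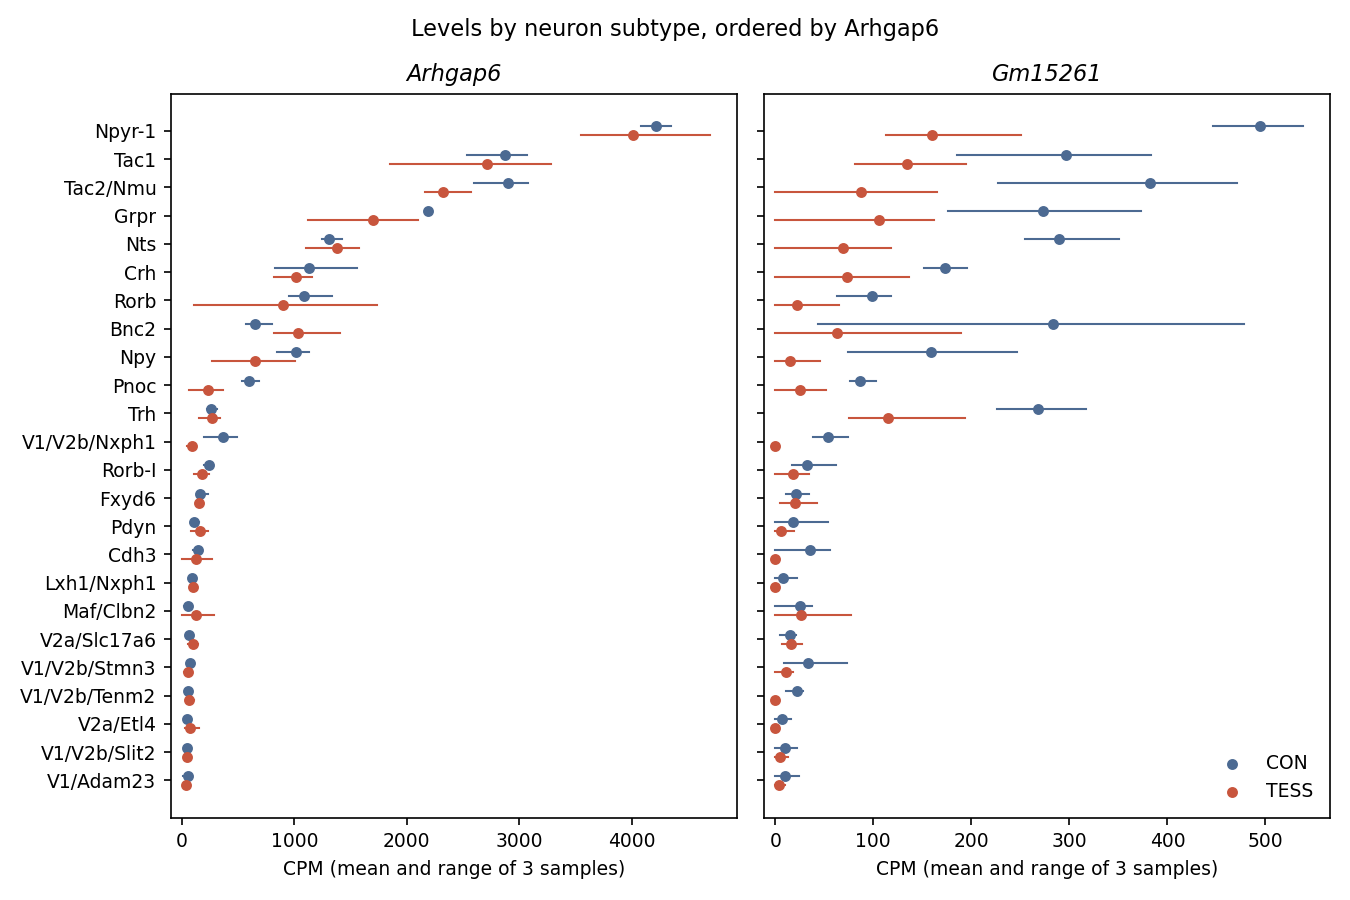
Arhgap6 and Gm15261 levels (CPM; points are means of 3 samples and lines their ranges) in the 24 neuron subtypes with at least 10 nuclei in every sample, ordered by Arhgap6, CON in blue and TESS in red. Npyr-1 tops both panels. Arhgap6 ranges of CON and TESS overlap in Npyr-1, while those of Gm15261 (446 to 539 and 113 to 250 CPM) do not. Gm15261 was chosen for being low in TESS, and CON samples were all above TESS samples for 8% of 987 genes tested in Npyr-1.

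The genes most like each other across subtypes were members of the pair themselves. Likeness was Pearson's r of log2(CPM + 10) over the 24 subtypes, samples summed, among 8068 genes with at least 200 neuron UMIs, and it is a description because all points share their libraries. Gm15261 ranked first for Arhgap6 (r = 0.931), followed by Tmcc3 (0.876), Scaper (0.866), Cmip (0.844) and Pdzd4 (0.840). Arhgap6 ranked first for Gm15261, followed by Scaper (0.907), Hdac7 (0.881), Fam65b (0.877) and Syt16 (0.872). Since reads of one gene may be counted for the other, the value of the first pair is not independent of how reads were assigned.

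The comparison of TESS with CON addresses which transcripts of the cord differ after walking enabled by stimulation. In neurons, Arhgap6 counted 1522, 1827 and 1328 UMIs in CON 1 to 3 and 830, 754 and 327 in TESS 1 to 3, which is 588, 702 and 621 CPM against 460, 470 and 332 CPM. TESS 3 was lowest, and the groups did not overlap. Arhgap6 fell by 0.61 ± 0.14 (log2 fold change ± SE, n = 3 per group, edgeR quasi-likelihood test, adjusted p = 0.0266). Of 11686 genes tested in neurons, 0.77% were called lower at an adjusted p below 0.05, and 8.61% had CON samples all above TESS samples. Inside batch 3, where TESS 1 alone stood against CON 1 and CON 2, the change was −0.52 ± 0.21. With batch as a term it was −0.53 ± 0.20 (adjusted p = 0.734). With that term 0 of 11686 genes were called, so the loss of the call was not particular to Arhgap6. The call was lost without CON 2 (−0.52, adjusted p = 0.145), without CON 3 (−0.63, adjusted p = 0.108) or without TESS 3 (−0.47, adjusted p = 0.185).

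Among the 24 subtypes with at least 10 nuclei in every sample, the 6 with the most Arhgap6 together made up fewer of the neurons in TESS. This difference was not tested. Npyr-1, Tac1, Tac2/Nmu, Grpr, Nts and Crh together were 22.7%, 25.7% and 22.1% of neurons in CON 1 to 3 and 15.2%, 20.6% and 17.4% in TESS 1 to 3, and they held 67.6% of Arhgap6 UMIs in CON and 62.0% in TESS. When equal numbers of nuclei of each subtype were drawn from every sample (3408 neurons in all), Arhgap6 stood at 470, 527 and 489 CPM in CON and 537, 437 and 340 CPM in TESS. The groups then overlapped, TESS 1 being the highest sample of all, and the change was −0.19 ± 0.14 (adjusted p = 0.616).

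Within single subtypes no change of Arhgap6 passed the test. It could be tested by edgeR in 14 of the 24 subtypes, where 11 changes were below 0, the median was −0.16 and 0 were called (adjusted p from 0.129 to 0.997, with 2 at an unadjusted p under 0.05). In these 14 subtypes 0.115% of 12177 tests of all genes were called. In Npyr-1 the samples were 4083, 4354 and 4219 CPM in CON and 3780, 4700 and 3553 CPM in TESS, a change of −0.09 ± 0.16 (adjusted p = 0.880). Tac1 stood at −0.10 ± 0.20 and Nts at 0.04 ± 0.26. Tac2/Nmu (−0.37 ± 0.19, adjusted p = 0.663) and Grpr (−0.40 ± 0.19, adjusted p = 0.484) had lower values in every TESS sample than in any CON sample without passing the test, as had 5.82% of 584 genes tested in Tac2/Nmu and 6.24% of 801 in Grpr. The value farthest below 0 was in the inhibitory subtype Pnoc, at −1.21 ± 0.38 (adjusted p = 0.129). There CON samples held 36, 40 and 35 Arhgap6 UMIs and TESS samples 5, 15 and 1, and the CPM of the groups did not overlap, as for 6.59% of 834 genes tested there. The highest was in Bnc2, at 0.53 ± 0.34 (adjusted p = 0.793).

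In the broader classes the Arhgap6 change had the same sign in neurons of both transmitter types. It was −0.49 ± 0.13 in excitatory neurons (adjusted p = 0.0554) and −0.56 ± 0.15 in inhibitory neurons (adjusted p = 0.0886), and neither passed. Of the genes tested, 0.708% and 0.159% were called lower in these classes. The difference between the changes was 0.07 ± 0.12 (edgeR interaction term, samples as blocks, adjusted p = 0.966). The groups did not overlap in either class, as was so for 8.25% of 9464 genes tested in excitatory and 7.48% of 10049 in inhibitory neurons in this direction. With equal nuclei per subtype they overlapped in both. Excitatory neurons then stood at 893, 966 and 885 CPM in CON and 1022, 842 and 667 CPM in TESS (−0.13 ± 0.13, adjusted p = 0.784), and TESS 1 was the highest sample. Inhibitory neurons stood at 160, 205 and 188 CPM in CON and 173, 125 and 96.8 CPM in TESS (−0.48 ± 0.19, adjusted p = 0.338), with TESS 1 inside the CON range. In all nuclei together the change was −0.57 ± 0.15 (adjusted p = 0.0907), where 0.5% of 13391 genes were called lower. The groups did not overlap there either, as was so for 8.6% of genes. In oligodendrocytes Arhgap6 counted 19, 26 and 20 UMIs in CON and 19, 18 and 19 in TESS. Scaled to 21.8, 24.7 and 23.8 CPM against 24.6, 38.9 and 51.7 CPM, this is a change of 0.56 ± 0.31 (adjusted p = 0.419), with 1.65% of 8796 genes called. The change in neurons minus that in oligodendrocytes was −1.13 ± 0.32 and did not pass (edgeR interaction term, adjusted p = 0.0783). Without TESS 1 it was −1.58 ± 0.35 and passed (adjusted p = 0.0156), as did 92 of 11413 genes tested. Without any other single sample it did not pass (adjusted p from 0.154 to 0.500). The corresponding differences from microglia (−0.65 ± 0.51), astrocytes (1.33 ± 1.00), oligodendrocyte precursors (−0.16 ± 0.76) and endothelial cells (−1.32 ± 0.64) had adjusted p from 0.893 to 1. At these counts in the other cell types the errors were wide.

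**Figure D3:**
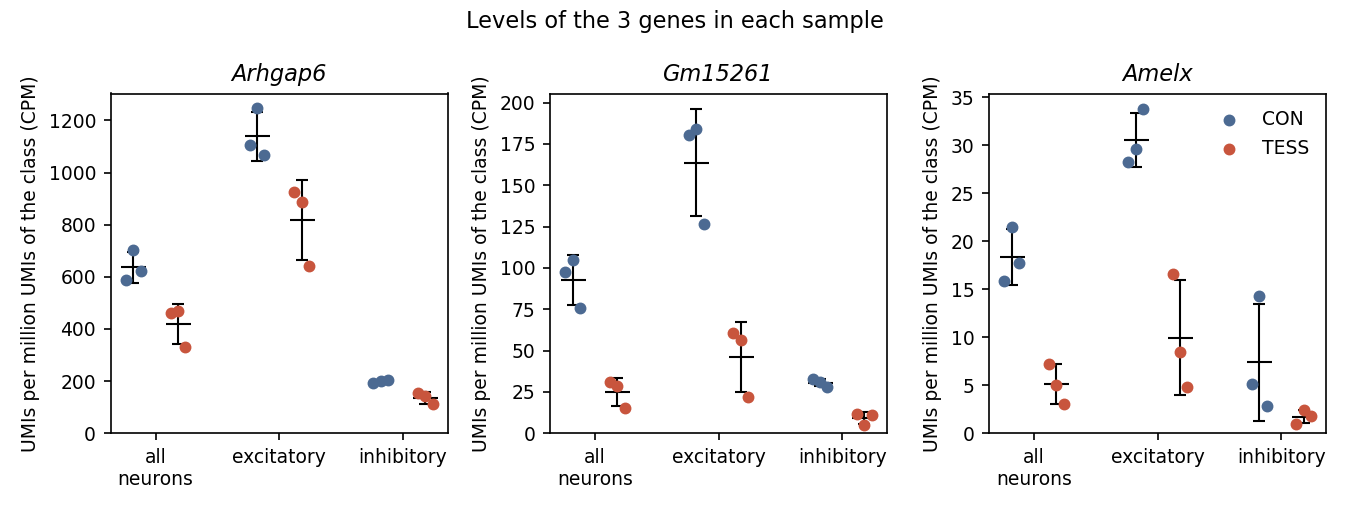
Levels (CPM, linear axes from 0) of Arhgap6, Gm15261 and Amelx in all neurons, excitatory neurons and inhibitory neurons; points are samples, bars mean ± SD of 3, CON in blue and TESS in red. In all neurons the CON and TESS samples of each gene do not overlap, with the gap widest relative to the level for Gm15261 (75.7 to 105 against 15.2 to 31.0 CPM). CON samples were all above TESS samples for 8.61% of genes tested in neurons.

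Gm15261, one of the genes chosen from this contrast, was lower in TESS in every neuron class, with log2 values farther from 0 than those of its host. Neurons of CON 1 to 3 held 253, 273 and 162 UMIs of Gm15261 and those of TESS 1 to 3 held 56, 46 and 15, or 97.7, 105 and 75.7 CPM against 31.0, 28.7 and 15.2 CPM. The lowest CON sample was above the highest TESS sample by more than the range within either group. With a gap of any size, CON samples were all above TESS samples for 8.61% of genes tested in neurons. The log2 difference was −1.85 ± 0.20 in neurons, −1.75 ± 0.22 in excitatory neurons, −1.77 ± 0.32 in inhibitory neurons and −1.79 ± 0.21 in all nuclei. Inside batch 3 it was −1.74 in neurons, and with equal nuclei per subtype −1.48 ± 0.23. Excitatory neurons had 180, 184 and 126 CPM in CON and 60.7, 56.1 and 21.8 CPM in TESS. Inhibitory neurons, at a lower level, had 32.6, 30.9 and 28.1 CPM in CON and 11.6, 4.78 and 10.9 CPM in TESS.

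Npyr-1 and Tac1 were the 2 subtypes with enough Gm15261 counts to be fitted singly. Npyr-1, where Arhgap6 stood at nearly the same level in both groups, had 38, 45 and 39 Gm15261 UMIs in CON and 11, 4 and 2 in TESS. That is 539, 446 and 497 CPM against 250, 113 and 116 CPM, a log2 difference of −1.51 ± 0.34, and the groups did not overlap (8% of 987 genes tested in Npyr-1). Tac1 had 33, 33 and 15 UMIs in CON and 9, 3 and 3 in TESS, a log2 difference of −1.13 ± 0.42, and there the highest TESS sample (194 CPM) was above the lowest CON sample (186 CPM).

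Amelx, the other gene chosen from this contrast, gave fewer UMIs. CON 1 to 3 held 41, 56 and 38 UMIs in neurons and TESS 1 to 3 held 13, 8 and 3. In CPM these were 15.8, 21.5 and 17.8 against 7.20, 4.99 and 3.05, and the groups did not overlap, as for 8.61% of genes tested in neurons. The log2 difference was −1.78 ± 0.33 in neurons, −1.52 ± 0.36 in excitatory neurons and −1.67 ± 0.34 in all nuclei. In excitatory neurons it was −0.84 inside batch 3, where TESS 1 held 12 Amelx UMIs. Inhibitory neurons held 7, 19 and 3 Amelx UMIs in CON and 1, 2 and 1 in TESS, too few for the fit. Whether the molecules counted as Amelx were spliced was not tested.

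Taking Gm15261 as UMIs per 100 Arhgap6 UMIs sets both genes in the same nuclei side by side, so that sequencing depth and the number of neurons cancel. This ratio uses the chosen contrast and is a description. It is not scaled by gene length and does not compare the amounts of the 2 RNAs. In neurons it was 16.6, 14.9 and 12.2 in CON 1 to 3 and 6.75, 6.10 and 4.59 in TESS 1 to 3, or 14.6 ± 2.23 and 5.81 ± 1.11. Every TESS sample was below every CON sample. With equal nuclei per subtype it was 17.8, 14.3 and 12.1 in CON and 6.68, 5.48 and 4.68 in TESS. It was 14.3 ± 2.30 and 5.42 ± 1.76 in excitatory neurons and 15.4 ± 1.61 and 6.94 ± 3.27 in inhibitory neurons, so in CON both transmitter classes had about the same ratio although their levels differed widely. Amelx per 100 Arhgap6 UMIs was 2.69, 3.07 and 2.86 in CON and 1.57, 1.06 and 0.917 in TESS.

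Over the 38 subtypes, samples summed and with no minimum of Gm15261, the ratio was lower in TESS in 35, higher in 1 and without a Gm15261 UMI in 2, with a median of 15.6 in CON and 5.59 in TESS. The subtype with the higher value was CSF-N, with 1 Gm15261 and 3 Arhgap6 UMIs in CON and 1 and 2 in TESS. In 17 of the 38 the TESS ratio rests on 0 or 1 Gm15261 UMIs. Gm15261 was chosen for being low in TESS and the subtypes share the same samples, so this count is no test of direction. Single subtypes are described for the 17 with at least 10 Gm15261 UMIs in CON. That minimum was set in the group where the gene is high, which favours lower values in TESS, so nothing is read from their direction, and in 6 of them TESS held 0 or 1 Gm15261 UMIs. In CON the ratio of 14 of the 17 ran from 9.32 in Rorb and 11.5 in Npyr-1 to 22.1 in Nts, and 3 subtypes stood above that. Subtypes under the minimum lay outside this span on both sides. Examples in CON were Lxh1/Nxph1 at 7.14 (1 Gm15261 UMI) and MN at 53.8 (7 Gm15261 UMIs). Trh neurons had 33 Gm15261 and 32 Arhgap6 UMIs in CON, a ratio of 103, and 7 and 17 UMIs in TESS, a ratio of 41.2. By sample the Trh ratio was 100, 130 and 84.6 in CON, so the high value did not come from 1 library. It was 25.0 and 57.1 in TESS 1 and TESS 2, while TESS 3 held 1 Gm15261 and 2 Arhgap6 UMIs. Bnc2 went from 42.9 in CON (83.3, 41.2 and 7.69 by sample) to 9.09 in TESS, and there CON 1 and CON 3 differed more than the groups. Cdh3 had 11 Gm15261 and 40 Arhgap6 UMIs in CON and 0 and 15 in TESS.

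**Figure D4:**
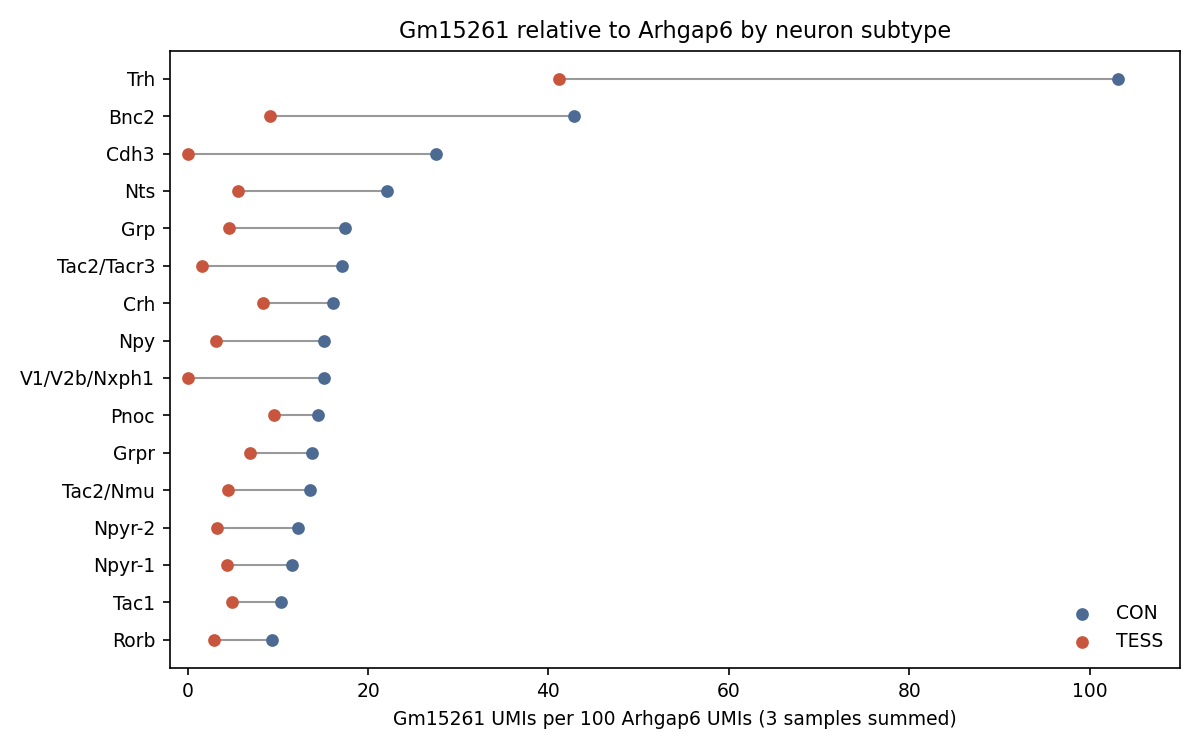
Gm15261 UMIs per 100 Arhgap6 UMIs, 3 samples summed, in 16 of the 17 neuron subtypes with at least 10 Gm15261 UMIs in CON; blue is CON, red is TESS and the line joins the same subtype. The minimum in CON favours TESS values to the left of CON; Trh stands apart at 103 in CON and 41.2 in TESS.

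Per nucleus, with neurons of all subtypes pooled, Gm15261 was seen more often where Arhgap6 was seen more. Among CON neurons with 0, 1, 2-3, 4-7 and 8 or more Arhgap6 UMIs, 3.38%, 17.6%, 28.2%, 43.5% and 61.8% held a Gm15261 UMI. In TESS neurons the shares were 1.34%, 5.52%, 10.7%, 16.8% and 40.0%, lower in each bin, though the last bin holds 30 TESS nuclei. Median depth was 2039, 1655, 1513, 1567 and 1759 UMIs along these bins in CON and 1578, 1337, 1189, 1315 and 1775.5 in TESS. It fell over the first 3 bins and rose over the last 3, in TESS to above that of the first bin, and the part of depth in these shares was not tested. In CON, 445 of 517 neurons with Gm15261 (86.1%) also held Arhgap6, against 31.5% of neurons without Gm15261, and in TESS 78 of 102 (76.5%) did, against 26.8%. Within the subtype Npyr-1, 97.8% of CON nuclei with Gm15261 held Arhgap6, against 93.3% of those without. In TESS these shares were 100% and 88.0%. Taken the other way, 44.6% of CON Npyr-1 nuclei with Arhgap6 held Gm15261, against 20.0% of those without Arhgap6. In TESS these were 14.7% and 0%. Npyr-1 nuclei without Arhgap6 were few, 2 with and 8 lacking Gm15261 in CON and 0 and 11 in TESS. The part of subtype in the pooled shares was not tested. Gm15261 was in 60 of 127 CON neurons with Amelx (47.2%), against 13.4% of CON neurons without Amelx. In TESS it was in 3 of 21 neurons with Amelx (14.3%), against 3.98% of those without. Most neurons with Gm15261 held a single UMI of it, 75.0% in CON and 86.3% in TESS, where the mean was 1.33 and 1.15 UMIs per positive neuron.

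**Figure D5:**
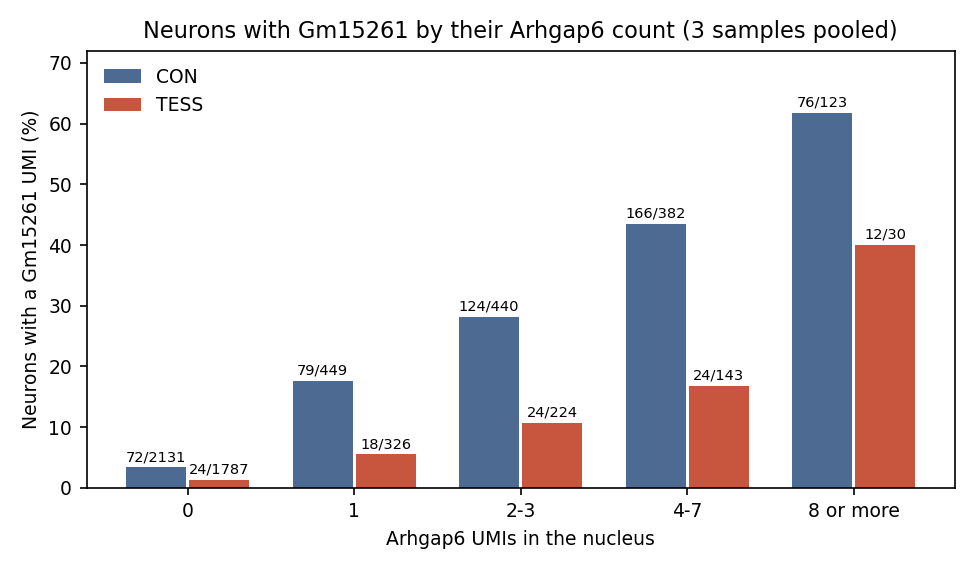
Share of neurons (%) with at least 1 Gm15261 UMI, by the number of Arhgap6 UMIs in the nucleus, 3 samples pooled, CON in blue and TESS in red, with the counts of nuclei above the bars. The share climbs from 3.38% to 61.8% in CON and from 1.34% to 40.0% in TESS, with all neuron subtypes pooled.

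Because neurons of TESS 2 and TESS 3 were shallower than those of every CON sample, shares of positive neurons were also taken after thinning each nucleus to 500 UMIs, which left out 43 CON and 92 TESS neurons. Arhgap6 was then seen in 23.7 ± 1.39% of CON and 17.4 ± 2.35% of TESS neurons (39.7 ± 3.02% and 28.5 ± 5.07% unthinned). For Gm15261 the shares were 5.37 ± 0.963% and 1.17 ± 0.232% (14.8 ± 3.68% and 4.06 ± 2.00% unthinned), and for Amelx 1.15 ± 0.256% and 0.368 ± 0.0569% (3.65 ± 1.05% and 0.845 ± 0.475% unthinned). The groups did not overlap for any of the 3, of which Gm15261 and Amelx were chosen for being low in TESS. No share over all genes was taken after thinning. By CPM, 8.61% of genes tested in neurons had CON samples all above TESS samples. Oligodendrocytes, with median depths of 328 to 536 UMIs against 1210 to 2130 in neurons, are set beside them. Whether their UMIs of these genes were their own or RNA from other cells was not tested. Thinned alike, 0.481 ± 0.0959% of CON and 0.596 ± 0.213% of TESS oligodendrocytes held Arhgap6. This thinning left out 3080 CON and 2591 TESS oligodendrocytes, and the shares rest on 11 and 5 positive nuclei. Unthinned, 1 of 5264 CON and 5 of 3573 TESS oligodendrocytes held Gm15261.

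The neighbouring genes of the X chromosome were compared in the same fit. Of 20 annotated genes within 1000 kb of Arhgap6, 6 were in the table and 4 could be tested in neurons, with a median change of 0.09 beside −0.01 over all genes. None was called by edgeR or DESeq2, and 1 had an unadjusted p under 0.05 in each, as had 14.7% and 5.46% of all genes in neurons by these tools. That was Hccs, which makes the enzyme that attaches heme to cytochrome c and overlaps the last exons of Arhgap6 on the minus strand (chrX:169250193-169320372). Its neurons held 20, 56 and 25 UMIs in CON and 14, 12 and 7 in TESS, which is 7.72, 21.5 and 11.7 CPM against 7.75, 7.48 and 7.11 CPM. CON 2 was high and CON 1 lay within the TESS range, and the change of −0.89 ± 0.38 did not pass (adjusted p = 0.272). In excitatory neurons Hccs held 14, 42 and 17 UMIs in CON and 8, 4 and 4 in TESS, or 12.4, 33.6 and 16.4 CPM against 11.03, 5.61 and 9.69 CPM. There the groups did not overlap, as for 8.25% of genes tested, and the change of −1.31 ± 0.44 did not pass either (adjusted p = 0.159). Hccs per 100 Arhgap6 UMIs in all neurons was 1.31, 3.07 and 1.88 in CON and 1.69, 1.59 and 2.14 in TESS, with the groups overlapping. Msl3, a subunit of a chromatin-modifying complex (0.16 ± 0.35), Gm21887 (0.13 ± 0.33) and Mid1, a ubiquitin ligase gene (0.05 ± 0.25), had adjusted p from 0.881 to 0.947.

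Other genes of the RhoGAP family, which like Arhgap6 switch off small GTPases, did not pass in neurons. Of 57 listed, 56 were in the table and 41 were tested, of which 12 had a change below 0, and the median was 0.14. None was called by edgeR or DESeq2, with 7 and 5 at an unadjusted p under 0.05, all higher in TESS. Among all genes in neurons 1.04% were called by edgeR and 14.7% had such a p, so the 7 of 41 are near the share of all genes. Arhgap23 had the smallest p, at 56.7, 60.3 and 61.2 CPM in CON and 69.2, 97.2 and 104 CPM in TESS (0.56 ± 0.16, adjusted p = 0.102). Abr (0.33 ± 0.12, adjusted p = 0.199) and Arhgap21 (0.37 ± 0.14, adjusted p = 0.230) followed. In all nuclei 50 were tested and 0 called by edgeR and by DESeq2, with 6 and 5 at an unadjusted p under 0.05 (14.9% and 7.06% of all genes), and the smallest p were those of Arhgap21 (0.42), Arhgap22 (0.47) and Abr (0.32).

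Downstream of RhoA, the kinases, scaffolds and cofilin regulators of the pathway also did not pass by edgeR. In neurons 22 of 26 were tested with a median of 0.08, and 0 were called by edgeR and by DESeq2, with 1 at an unadjusted p under 0.05 in each. That was Ssh1, a phosphatase that activates cofilin, at 27.0, 28.8 and 24.3 CPM in CON and 41.0, 32.4 and 57.9 CPM in TESS (0.64 ± 0.20, adjusted p = 0.127). Arhgdia, which holds RhoA in the cytosol (0.36 ± 0.19), and Limk1, a kinase that inactivates cofilin (0.29 ± 0.15), followed with adjusted p of 0.385 and 0.388. In all nuclei all 26 were tested, with a median of 0.11. Rhpn2, a GTPase-binding scaffold, stood at 15.3 ± 3.09 CPM in CON and 29.2 ± 4.55 CPM in TESS (0.92 ± 0.21), with an adjusted p of 0.0533 by edgeR. There edgeR called 0 and DESeq2 called 1 of the 26 (0.754% of all genes by edgeR), with 3 at an unadjusted p under 0.05 by each. Ssh1 (0.46) and cofilin 2, Cfl2 (−0.35), came next in all nuclei.

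Other genes of tooth enamel and dentin were looked for because Amelx is known from that tissue. Of 10 listed, 2 were in the table: Dmp1, a dentin matrix gene, with 27 UMIs in all nuclei, and Ibsp, a bone matrix gene, with 1. The enamel genes Ambn and Enam were not among the symbols of the table, whereas Amelx had 167 UMIs.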

How the data were processed

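The authors deposited a table of UMI counts per gene and nucleus, with the library, batch, major cell type, neuron subtype and mitochondrial fraction of each nucleus (the deposited fraction was used only to describe the samples). Cell Ranger 2.2.0, Seurat 3 and the builds mm10 and GRCm38 are named in the submitters' processing notes. No source used here gives the filters, the treatment of doublets, or whether introns or strand were used in counting. No doublet caller was run. Here counts were summed per sample and class, and TESS was compared with CON in R 4.3.3 with edgeR 4.0.16 (quasi-likelihood test, TMM, filterByExpr with a minimum count of 10, no batch term), with Benjamini-Hochberg adjustment over all genes of a class and a threshold of 0.05; DESeq2 1.42.0 was an alternative. The test was tried on simulated counts. CPM are over all UMIs of the class. Samples held 1582104 to 4037976 UMIs, which limits Gm15261 and Amelx in single subtypes. Thinning to 500 UMIs and the draw of equal nuclei per subtype were seeded. The members and lists were chosen with earlier results of these data known. Named were the 3 members, called list genes or else the 3 with the smallest p, and the 5 most alike genes; single subtypes, Ambn and Enam were named after their values were seen. Same-numbered samples did not deviate together (r from −0.074 to 0.000), so no pairing was used. Motifs were matched by exact letters on both strands. The values of 1 subtype are not reported singly here; it stays in the counts and medians over subtypes.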

Additional observations from a re-analysis of the deposited data

How the results depend on the processing

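Gm15261 and Amelx were chosen for being low in TESS and the alternatives reuse the same counts, so their values here are a description. Gm15261 was lower in TESS in neurons under every alternative run, from −2.01 to −1.48, and its ratio to Arhgap6 (TESS minus CON, −8.78) ran from −9.97 to −7.76. The Arhgap6 call in neurons was lost with batch as a term (−0.53), where 0 of 11686 genes were called, and with equal nuclei per subtype (−0.19). Inside batch 3 the Arhgap6 change was −0.52, and leaving out 1 sample gave −0.72 to −0.47. In excitatory neurons Arhgap6 passed with DESeq2 (−0.49), without a filter on low counts (−0.51) and with a replicate block (−0.51). Without a filter it also passed in inhibitory neurons (−0.59). In all nuclei it passed with DESeq2 (−0.57), without a filter (−0.58) and with the block (−0.58), and without 1 sample it ran from −0.72 to −0.42. The cause of these shifts was not tested.

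Amelx stood at −1.32 in neurons with equal nuclei. In excitatory neurons it was −0.83 with batch as a term, −0.84 inside batch 3 and −2.10 to −1.29 without 1 sample. In all nuclei it was −1.22 with batch as a term and inside batch 3 (−1.215 and −1.221) and −2.14 to −1.44 without 1 sample. Of the lists, the RhoGAP family had 0 to 1 calls in neurons without 1 sample, and the RhoA pathway had 1 call in all nuclei with DESeq2 and 1 without a filter. The neuron minus oligodendrocyte difference ran from −1.58 to −0.78 without 1 sample. The difference from oligodendrocyte precursors ran from −1.43 to 0.28 and changed sign without CON 1 (0.22), CON 3 (0.16), TESS 2 (0.28) or TESS 3 (0.05). Shares of positive neurons differed by −11.2 percentage points unthinned for Arhgap6 (−6.27 thinned to 500 UMIs), by −10.7 unthinned and −2.54 at 300 UMIs for Gm15261 (−4.20), and by −2.80 and −0.43 for Amelx (−0.78).

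The replicate numbers are shared between groups but did not pair the samples, as same-numbered samples had correlations of −0.074, 0.000 and −0.058. With the replicate block edgeR called 169 genes in neurons in place of 122, and Arhgap6 stood at −0.63 there. Counts of called genes in neurons were 335 without a filter, 51 with equal nuclei, 19 to 105 without 1 sample, and 0 with batch as a term, with 765 at an unadjusted p under 0.05. The 3 samples a group and 3 Amelx UMIs in TESS 3 limit the precision.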

Other observations

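Tsix, an antisense RNA of Xist on the same chromosome, was counted per 100 Xist UMIs at 1.06, 16.3 and 3.84 in CON 1 to 3 and 7.004, 4.13 and 5.02 in TESS 1 to 3, so the TESS samples lay within the CON range.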
